A study of Mus musculus with 12 samples.

Results

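Aminoacyl-tRNA synthetases, the enzymes that join each amino acid to its transfer RNA, are described here across the life of mouse myelin. Their genes were taken by symbol, as a single capital letter followed by ars, with or without a final 2, together with Eprs, Farsa and Farsb. This gave 37 of the 21937 genes in the table, 20 for cytosolic enzymes or subunits and 17 for mitochondrial enzymes, and all 37 reached the level required for testing. The RNA came from a myelin-enriched membrane fraction of light weight, purified from brain, and the mice were male, wild type and of the inbred strain c57Bl6/N. The 12 samples were taken at 18 days (P18) or 75 days (P75) after birth, or at an age of 6 months or 24 months, 3 at each age, and the labels name no allele or agent beside the wild type genotype and the strain. Whether the 3 samples of an age came from separate animals is not stated, so a p-value here weighs only the scatter among these samples, which may be technical.

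A synthetase activates its amino acid with ATP and transfers it to the matching tRNA, which then delivers it to the ribosome. Mammalian cells keep separate sets of these enzymes for the cytosol and for the mitochondrion, both encoded in the nucleus, and only Kars and Gars serve both compartments from a single gene. Several cytosolic synthetases (the products of Eprs, Iars, Lars, Qars, Mars, Kars, Rars and Dars) sit in a multisynthetase complex held together by the scaffold proteins of Aimp1, Aimp2 and Eef1e1. Mitochondria lack a glutaminyl-tRNA synthetase and make that charged tRNA from the product of Ears2 with an amidotransferase. Many cytosolic synthetase genes are known targets of ATF4, the transcription factor of the integrated stress response, which the kinase encoded by Eif2ak4 sets off when uncharged tRNA builds up. In humans, inherited variants in DARS, RARS and EPRS cause disorders with too little myelin, and variants in EARS2 and AARS2 cause other diseases of white matter.

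Promoter windows from 250 bases before to 50 bases after the start site were taken from RefSeq (build GRCm38.p6, not the build of the counts) and could be matched for 27 of the 37 members. They were searched on both strands for TGATGNAA, the form in which ATF4 and its C/EBP partners are known to bind, as the fixed letters of an amino acid response element. The word was present in 5 of 27 member genes (18.5%), against 1219 of 27025 genes with a window (4.51%), whether tested here or not. All of them were cytosolic: 5 of 13 cytosolic genes with a window held it and 0 of 14 mitochondrial genes. The 5 windows are shown because these genes are described below, with the word in capitals on either strand. Their positions are chr8:111033592-111033891 for Aars, chr6:55037751-55038050 for Gars, chr13:49681880-49682179 for Iars and chr4:129189653-129189952 for Yars, all on the plus strand, and chr15:11399609-11399908 for Tars on the minus strand, each printed 5′ to 3′ along its gene.
Aars: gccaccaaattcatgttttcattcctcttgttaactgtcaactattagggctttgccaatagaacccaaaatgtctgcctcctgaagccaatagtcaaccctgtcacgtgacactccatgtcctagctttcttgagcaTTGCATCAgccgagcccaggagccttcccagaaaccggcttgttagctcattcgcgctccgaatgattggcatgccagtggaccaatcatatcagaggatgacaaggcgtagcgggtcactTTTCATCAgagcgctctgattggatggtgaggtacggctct
Gars: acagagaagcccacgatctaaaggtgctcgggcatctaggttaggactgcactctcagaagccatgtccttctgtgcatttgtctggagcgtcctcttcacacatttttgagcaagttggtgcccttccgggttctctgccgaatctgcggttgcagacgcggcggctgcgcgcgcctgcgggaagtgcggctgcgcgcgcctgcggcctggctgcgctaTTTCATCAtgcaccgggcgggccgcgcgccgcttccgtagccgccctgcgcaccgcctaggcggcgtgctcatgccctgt
Iars: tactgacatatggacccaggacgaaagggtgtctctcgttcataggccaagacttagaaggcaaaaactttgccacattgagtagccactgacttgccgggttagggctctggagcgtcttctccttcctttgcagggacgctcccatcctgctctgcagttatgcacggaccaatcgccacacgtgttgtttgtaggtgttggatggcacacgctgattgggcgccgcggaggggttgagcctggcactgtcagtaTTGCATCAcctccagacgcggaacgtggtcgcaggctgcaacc
Tars: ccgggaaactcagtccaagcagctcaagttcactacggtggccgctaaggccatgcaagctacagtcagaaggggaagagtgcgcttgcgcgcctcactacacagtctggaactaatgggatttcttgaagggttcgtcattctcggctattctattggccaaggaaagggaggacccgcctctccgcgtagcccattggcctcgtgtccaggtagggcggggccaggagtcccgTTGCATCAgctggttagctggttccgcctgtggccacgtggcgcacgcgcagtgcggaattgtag
Yars: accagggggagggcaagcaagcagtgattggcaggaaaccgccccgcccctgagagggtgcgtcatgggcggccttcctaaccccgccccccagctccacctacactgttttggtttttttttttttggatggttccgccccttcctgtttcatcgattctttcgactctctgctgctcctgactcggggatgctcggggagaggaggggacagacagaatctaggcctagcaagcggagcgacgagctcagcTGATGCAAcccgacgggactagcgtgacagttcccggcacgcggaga

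On the strand as printed, the word begins at base 8 in Iars and at base 4 in Yars, counted from the start site as 1, and it reads along the printed strand in Yars and along the other strand in the rest. In Tars and Gars its first base lies 15 and 30 bases before the start site (positions -15 and -30). Aars holds it at position -112 and again, as TGATGAAA, at base 10, and Gars also holds the form TGATGAAA, while the others hold TGATGCAA. Of the 7 cytosolic genes with a window that were higher at 6 months than at P75, 3 held the word (Aars, Iars and Yars). So did 2 of the 6 that did not pass (Gars and Tars). Nars, Wars, Vars and Cars, which were also higher at 6 months, had no window, so these counts leave them out. A match of letters is a description and not a binding site or a cause, and the genes without a match or without a window are not read any further.

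Each sample held 20299052 to 27214385 reads in genes. Here and below, ± is the SD of shares, sums and counts (n = 3 at each age) and the SE of log2 fold changes. At P18 the 6 myelin and oligodendrocyte markers took 17 ± 6.03% of the summed value of a sample. Their share was 6.51 ± 1.35% at P75, with 7.43 ± 2.01% in the 6 months and 7.44 ± 1.13% in the 24 months samples. The share of the 5 neuronal markers was 0.588 ± 0.114%, 0.77 ± 0.0631%, 0.586 ± 0.035% and 0.555 ± 0.0211% at the successive ages. A share weighs the most abundant genes of a list most. At P75 against P18, 0 of the 5 neuronal markers were called higher in the limma test and 2 lower, though their mean share was larger. Among all genes tested 21.7% were higher and 18.7% lower. No marker, those of astrocytes, microglia and endothelium included, was at 0 in any sample. P18 replicate 3 had the lowest myelin marker share of its age, 10.9% against 17.1% and 22.9% in the other P18 samples. How the mixture of cells bears on the synthetase values was not tested, and in bulk RNA fewer cells of a type and less RNA per cell cannot be told apart.

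Levels were set beside each other per kilobase of the longest annotated protein-coding transcript of a gene. Lars2 stood highest with 3630.3 normalised counts per kilobase as a mean over the 12 samples. It was followed by Nars with 1871, Gars with 1576, Sars with 1174 and Hars with 1107. Apart from Lars2, every mitochondrial gene lay below Cars, a cytosolic gene at 231, and the last were Wars2 with 15.3 and Mars2 with 14.7. These ranks depend on the annotated models, which are long for Mars2 (11294 bases) and Aars (5750 bases). Vars, at 132, was the lowest cytosolic gene on this scale. Lars2, the mitochondrial leucyl-tRNA synthetase gene, also stood apart in its spread. Its normalised counts were 11453, 22735 and 24384 at P18, 16418, 11278 and 9110.3 at P75, 9788, 9941 and 12227 at 6 months, and 18983, 12732 and 10585 at 24 months, with a coefficient of variation within ages of 27.6% as a mean, against 2.62 to 14.8% for the other members. At 13.5 times the mean of Iars2, the next mitochondrial gene, it made up 17.0 to 36.6% of the summed member counts of a sample. Its samples overlapped between all neighbouring ages and no comparison passed with all samples in the limma test on the values as deposited. P75 against P18 came nearest (-0.64 ± 0.26, adjusted p = 0.0643), and passed without P18 replicate 1 (-0.98, adjusted p = 0.0034) or P75 replicate 1 (-0.87, adjusted p = 0.0233), with quantile normalisation (adjusted p = 0.0465) and in the edgeR test (0.0481). For 24 months against P18, Lars2 passed without P18 replicate 1 (-0.78, adjusted p = 0.00768) or 24 months replicate 1 (-0.67, adjusted p = 0.0475). Its level is therefore treated as uncertain and sums are given without it.

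Across the 4 ages, 23 of the 37 genes (62.2%) differed at some age in the limma F test, against 77.4% of the 14987 genes tested. The share was 14 of 20 for cytosolic and 9 of 17 for mitochondrial genes. Of the 23, the highest mean lay at 6 months for 15, at P18 for 3, at P75 for 2 and at 24 months for 3. Among the 14 cytosolic genes that passed, 11 were highest at 6 months. Peak ages were not counted over all genes tested, so whether a peak at 6 months is particular to these genes is not known. The largest ratio between the highest and the lowest age mean was 2.08 for Iars, and the median over the 23 was 1.38.

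Summed over the 20 cytosolic genes, the normalised count was 34542 ± 1801, 33882 ± 1934, 40937 ± 1531 and 35379 ± 992 in samples of P18, P75, 6 months and 24 months. The 6 months samples (39468 to 42523) lay above every other sample, of which the highest, from P18, reached 36621. The 8 synthetases of the complex summed to 9373 ± 415, 9959 ± 337, 11516 ± 524 and 10136 ± 154 at the successive ages. The 16 mitochondrial genes without Lars2 summed to 5758 ± 257, 5681 ± 57, 5499 ± 224 and 5723 ± 139, and the samples of neighbouring ages overlapped. These sums were not tested. With Lars2 the mitochondrial sum was 25282 ± 7292, 17949.8 ± 3698, 16151 ± 1452 and 19823 ± 4495.

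**Figure D1:**
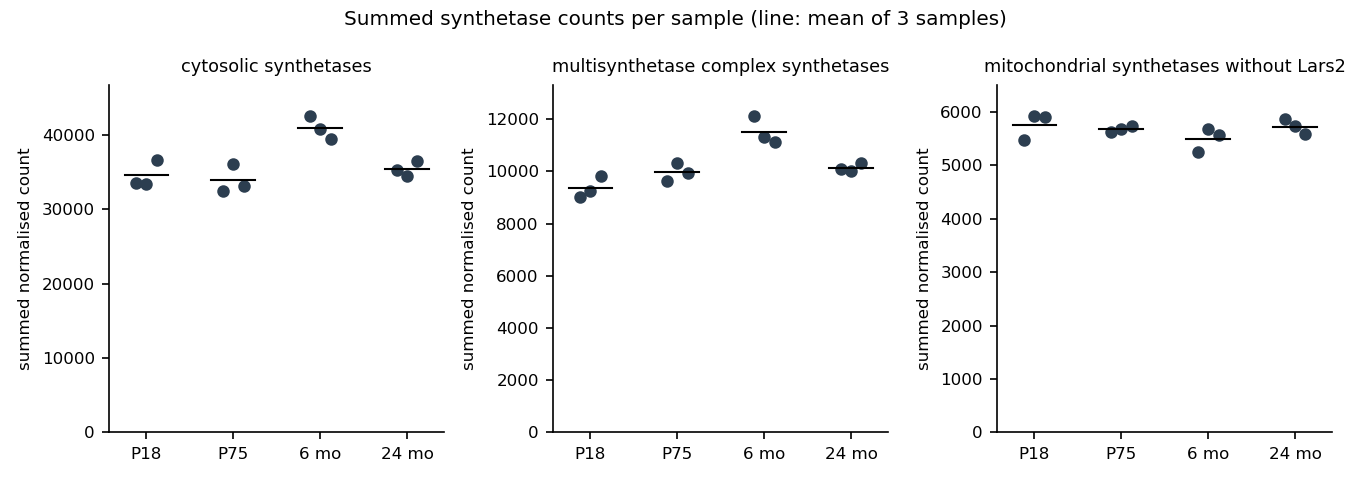
Summed normalised counts per sample by age for the 20 cytosolic synthetase genes, the 8 synthetases of the multisynthetase complex and the 16 mitochondrial genes without Lars2; points are samples and lines the mean of 3. The 6 months samples lie above all others in the cytosolic panel, while the mitochondrial sums stay between 5249 and 5917.

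The comparison of P75 with P18 set the young adult against the period of active myelination. Few synthetase genes moved: Lars and Rars rose, and Hars, Iars, Vars2, Iars2, Farsa and Yars fell. That made 8 of 37 called, against 40.4% of all genes tested, with 2 higher (21.7% of all genes) and 6 lower (18.7% of all genes). Samples of the ages did not overlap for 12 of the 37, against 47.1% of all genes. The median log2 fold change was -0.032 over the members and 0.017 over all genes tested. The myelin marker share was 6.51 ± 1.35% at P75, against 17 ± 6.03% at P18, and its part in these results was not tested.

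Hars, the cytosolic histidyl-tRNA synthetase gene, had normalised counts of 2625, 2644 and 2819 at P18, 2036, 2157 and 2027 at P75, 2099, 2158 and 2138 at 6 months, and 1926, 1868 and 1914 at 24 months. All P18 samples lay above all others, and the samples of P75 and 6 months overlapped. Hars fell at P75 against P18 (log2 fold change -0.38 ± 0.071, limma adjusted p = 0.000559) and was lower at 24 months than at P18 (-0.50 ± 0.071, adjusted p = 1.30e-05). Hars and Hars2 lie head to head and share 195 exonic bases (9.8% of Hars and 5.8% of Hars2 in GENCODE vM21), where counting without strand could not assign reads. Lars, whose enzyme charges leucine in the cytosol, had 665, 670.0 and 859.8 at P18, 904, 1021 and 918 at P75, 1163, 1075 and 1010.1 at 6 months, and 1074, 937 and 931 at 24 months. Its P75 samples all lay above the P18 samples, among which replicate 3 was the highest. Lars rose by 0.38 ± 0.11 (adjusted p = 0.00883). Vars2, the mitochondrial valyl-tRNA synthetase gene, had 258, 298 and 283 at P18, 232, 216 and 212 at P75, 232, 249 and 251 at 6 months, and 297, 294 and 305 at 24 months. Its P75 samples lay below all P18 samples, with a fall to 220.3 ± 10.8 at P75, against 279.8 ± 20.4 at P18 (-0.34 ± 0.10, adjusted p = 0.0104), a call that was lost without P18 replicate 2 (adjusted p = 0.0511).

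Of the other calls, Iars, for isoleucine, fell (-0.35 ± 0.10, adjusted p = 0.0101), as did its mitochondrial partner Iars2 (-0.33 ± 0.10, adjusted p = 0.0173), Farsa (-0.29 ± 0.11, adjusted p = 0.0393) and Yars, for tyrosine (-0.28 ± 0.080, adjusted p = 0.00962), while Rars, for arginine, rose (0.25 ± 0.090, adjusted p = 0.0366). Without P18 replicate 2 the calls of Iars, Iars2, Rars and Vars2 were lost (adjusted p 0.0511 to 0.164), leaving 4 of 37. Without P75 replicate 2 those of Iars, Iars2 and Rars were lost (0.0511 to 0.131), without P75 replicate 1 those of Farsa and Yars (0.0505 to 0.0802), and without P75 replicate 3 those of Farsa and Rars (0.0954 to 0.161). Rars was also lost without P18 replicate 1 (adjusted p = 0.0967), and Farsa without P18 replicate 3 (0.174) or 24 months replicate 2 (0.0529). With only the samples of P75 and P18 in the fit both Rars and Farsa were lost (0.0952 to 0.0972), and Rars also with the trend on GC content removed (0.15, adjusted p = 0.186). Without P18 replicate 3, which had the lowest myelin marker share, 6 genes were higher and 5 lower, with Hars2, Mars, Rars2 and Vars added (adjusted p 0.0328 to 0.0493).

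**Figure D2:**
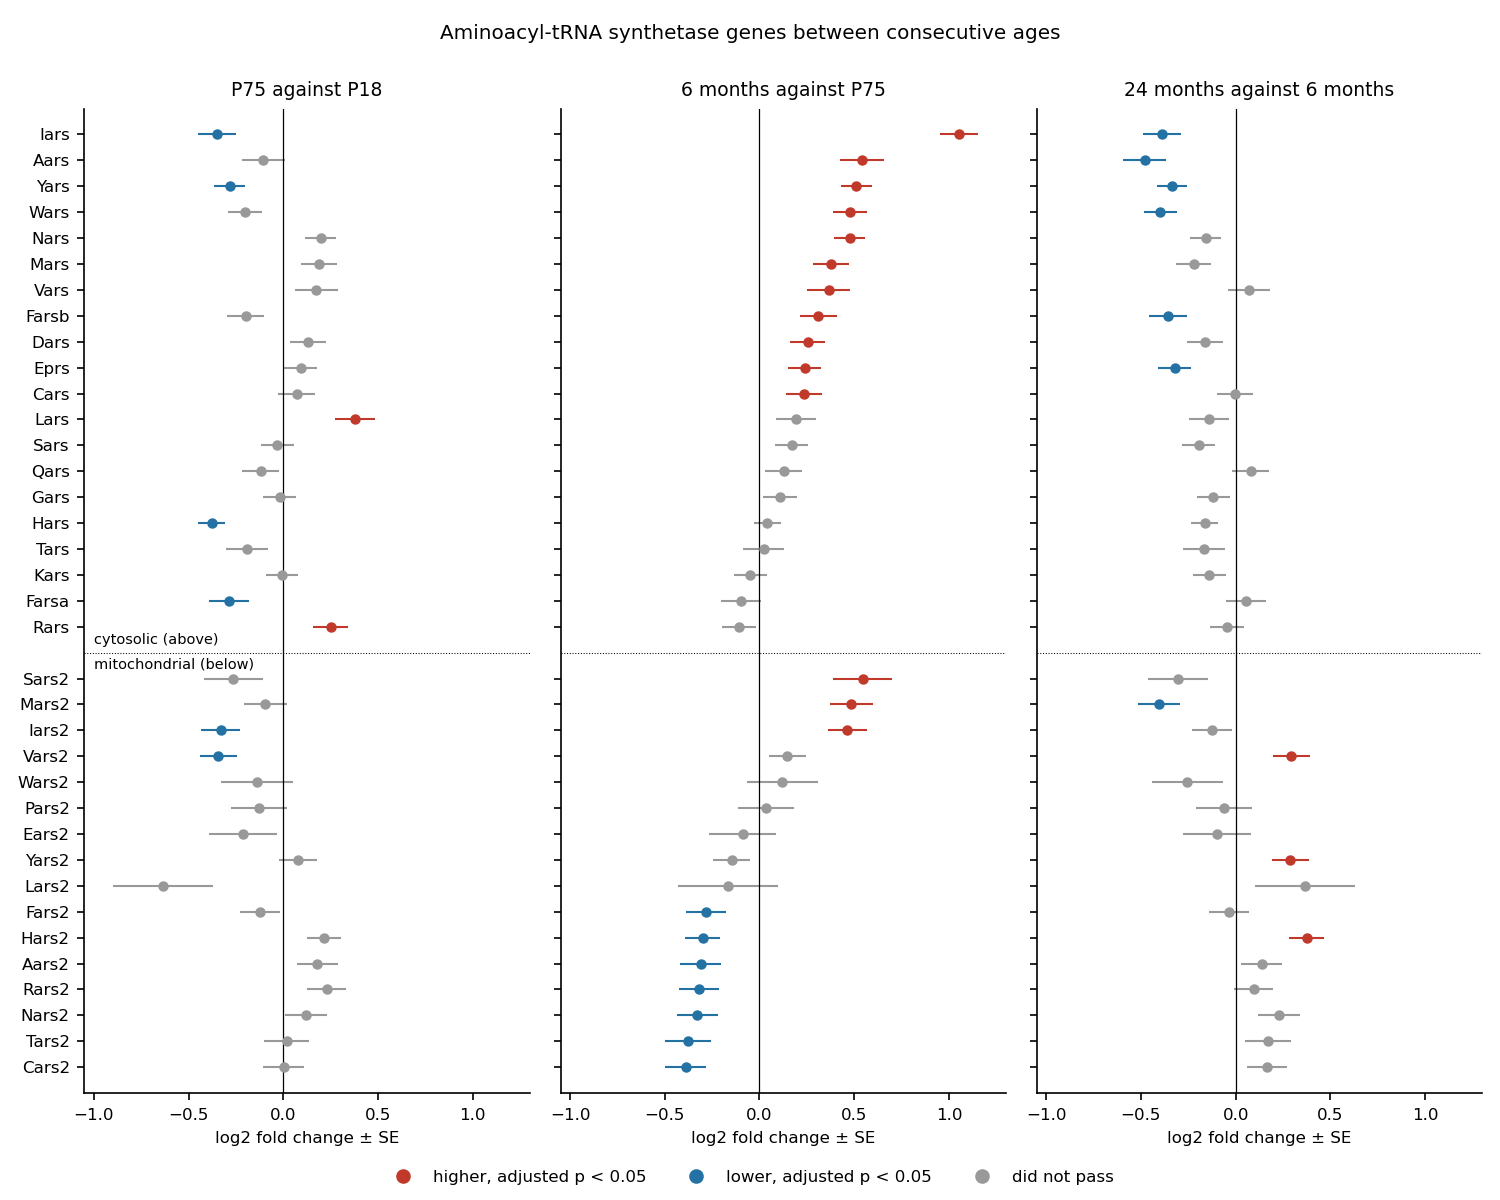
Log2 fold changes with their standard errors of 36 of the 37 synthetase genes between consecutive ages, cytosolic genes above the dotted line and mitochondrial genes below it, each ordered by the change at 6 months against P75. Colours mark an adjusted p under 0.05; at 6 months against P75 the 11 called cytosolic genes are all higher, and 7 of the 10 called mitochondrial genes are lower.

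Between 6 months and P75, both adult ages, all synthetase genes of the cytosol that passed the test rose and most of the mitochondrion that passed fell. Of 20 cytosolic genes 11 rose, 0 fell and 9 did not pass, led by Iars, with 1083 ± 80.2 normalised counts at 6 months, against 522 ± 48 at P75. Of 17 mitochondrial genes 3 rose (Sars2, Mars2 and Iars2), 7 fell (Cars2, Tars2, Nars2, Rars2, Aars2, Hars2 and Fars2) and 7 did not pass. In all 21 of 37 were called, against 52.4% of all genes tested, with 14 higher (27.1% of all genes) and 7 lower (25.4% of all genes). Median log2 fold changes were 0.24 over the cytosolic, -0.15 over the mitochondrial (-0.12 without Lars2) and 0.0029 over all genes tested. The ages did not overlap for 22 members, 16 higher and 6 lower, against 62.3% of all genes. The difference between the cytosolic and the mitochondrial genes as groups was not tested. Summed markers of other cells also differed between these ages. The 4 astrocyte markers summed to 27296 to 30934 normalised counts at 6 months, against 19076 to 22430.2 at P75, the 4 microglia markers to 3136 to 3598, against 2378 to 2742, and the 5 neuronal markers to 131431 to 134038, against 160991 to 186283, without overlap between the ages in any of the 3 lists. Endothelial markers summed to 250.2 to 272 at 6 months, against 206 to 248 at P75, again without overlap, while the myelin marker sums overlapped. A sum weighs the most abundant genes of a list most, and single markers did not all move with it. In the limma test 2 of the 5 neuronal markers were higher and 2 lower, and 2 of the 4 microglia markers were higher and 1 lower. Of the 4 astrocyte markers 1 was higher and 0 lower, and of the 3 endothelial markers 2 were higher and 0 lower. The part of the markers in the synthetase results was not tested.

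Iars had normalised counts of 684, 727 and 587 at P18, 573, 478 and 513 at P75, 1173, 1021 and 1054 at 6 months, and 798, 807 and 871 at 24 months. The 6 months samples lay above and the P75 samples below those of every other age. Its log2 fold change at 6 months against P75 was 1.05 ± 0.10 (adjusted p = 6.73e-07), and the call held in all alternatives, with an adjusted p of 4.96e-08 to 1.07e-05. Aars, for alanine, had 2726, 2752 and 3485 at P18, 2714, 3196 and 2427 at P75, 4374, 4014 and 3696 at 6 months, and 2855, 2697 and 3100.0 at 24 months. Its 6 months samples were the highest of all 12, and P75 and P18 overlapped (0.54 ± 0.12, adjusted p = 0.000939 for 6 months against P75). The annotated Aars model shares 23.1% of its exonic bases with Exosc6, a gene on the same strand, so its level is uncertain; Exosc6 itself was lower at 6 months than at P75 (-0.81 ± 0.14, adjusted p = 0.000138). Yars had 1716, 1665 and 1700.5 at P18, 1299, 1495 and 1387 at P75, 2098, 1922 and 1936 at 6 months, and 1491, 1554 and 1671 at 24 months. Its 6 months samples lay above and its P75 samples below those of P18, with 0.51 ± 0.080, adjusted p = 6.55e-05 for 6 months against P75.

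Wars, for tryptophan, had 1539, 1528 and 1459 at P18, 1227, 1503 and 1223 at P75, 1830.4, 1886 and 1760.3 at 6 months, and 1359, 1318 and 1484 at 24 months. All other samples lay below those of 6 months, and Wars rose by 0.48 ± 0.089 against P75 (adjusted p = 0.00032). Nars, for asparagine and the most abundant cytosolic member, had 4113, 3856 and 3941 at P18, 4311, 4421 and 4953 at P75, 6591, 6252 and 6171 at 6 months, and 5846, 5555 and 5622 at 24 months. Its counts were lowest in the P18 samples, and neither P75 and 6 months nor 6 months and 24 months overlapped. Nars rose at 6 months against P75 (0.48 ± 0.081, adjusted p = 0.00014). The other cytosolic genes that rose were Mars, for methionine (0.38), Vars, for valine (0.37), Farsb, a subunit of the phenylalanyl enzyme (0.31), Dars, for aspartate (0.25), Eprs, for glutamate and proline (0.24), and Cars, for cysteine (0.24, adjusted p = 0.0496). Without 6 months replicate 1 Farsb, Dars, Eprs and Cars did not pass (adjusted p 0.0638 to 0.152). The cytosolic genes that did not pass ran from -0.11 for Rars to 0.19 for Lars, and included Kars (-0.048) and Gars (0.11), the genes that serve both compartments.

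**Figure D3:**
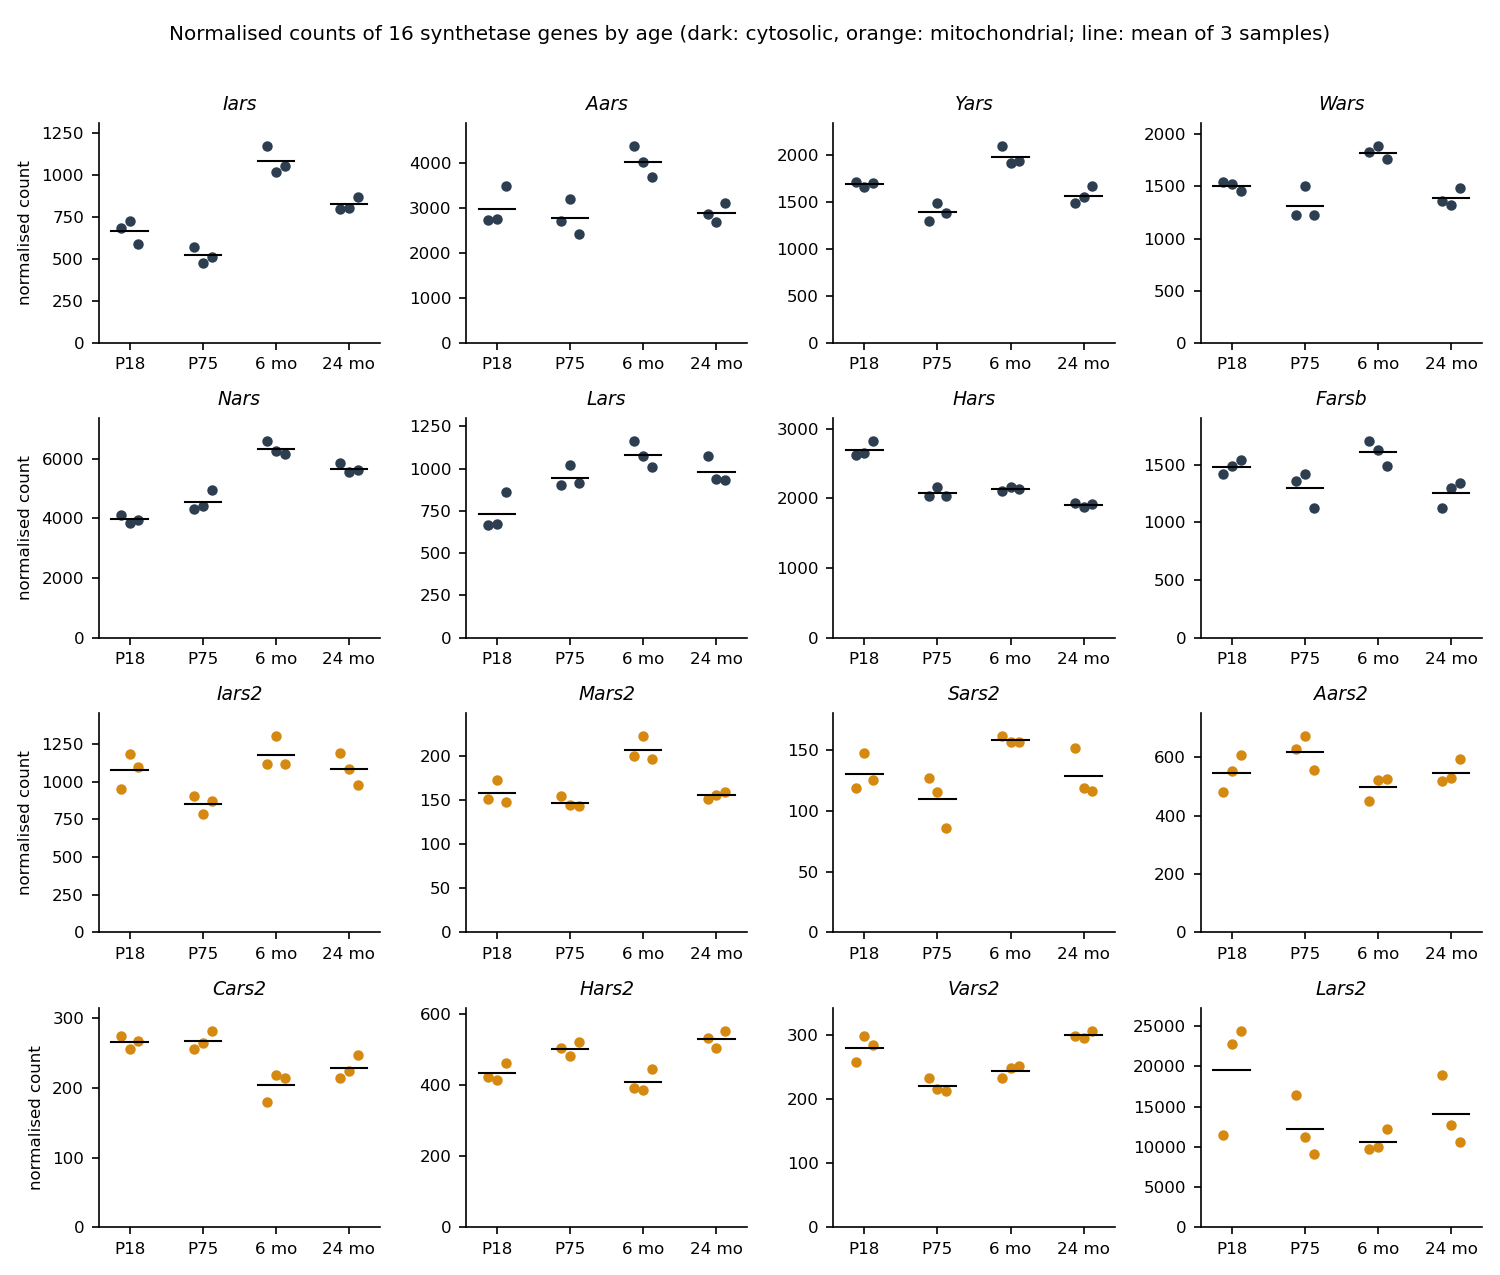
Normalised counts of 16 synthetase genes in the 12 samples, dark points for cytosolic and orange points for mitochondrial genes, with a line at the mean of 3 samples. The 6 months samples of Iars, Aars, Yars, Wars and Nars lie above those of P75, those of Cars2, Hars2 and Aars2 lie below, and the samples of Lars2 spread widely within each age.

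Among mitochondrial genes, Sars2, for serine, had 119, 148 and 126 at P18, 127, 116 and 86.2 at P75, 162, 157 and 157 at 6 months, and 152, 119 and 117 at 24 months. Those of 6 months were close together and above the others, and P75 replicate 3 was the lowest of the 12. Sars2 rose at 6 months against P75 (0.54 ± 0.16, adjusted p = 0.00787), a call that was lost without P75 replicate 3 (0.38, adjusted p = 0.0508). Mars2, for methionine, had 151, 173 and 148 at P18, 154, 144 and 143 at P75, 199.9, 222 and 197 at 6 months, and 151, 156 and 159 at 24 months. Its 6 months samples lay above all others, while the other ages overlapped (0.48 ± 0.11, adjusted p = 0.00178 for 6 months against P75). Iars2 rose as well (0.46 ± 0.10, adjusted p = 0.00135); its annotated exons share 30.5% of their bases with Rab3gap2 on the opposite strand, which rose too (0.27 ± 0.080, adjusted p = 0.00963), so the level of Iars2 is uncertain. The mitochondrial genes that fell had log2 fold changes from -0.39 for Cars2, at 204 ± 21.1 normalised counts at 6 months, against 266 ± 13.4 at P75, to -0.28 for Fars2, whose call was lost without 6 months replicate 1 (adjusted p = 0.0954). Samples of the ages did not overlap in 6 of these 7, with Fars2 as the exception.

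The calls of Iars, Aars, Yars, Wars, Nars, Mars, Mars2, Iars2, Cars2 and Hars2 held in all alternatives. Without 6 months replicate 1 the calls of Aars2, Cars, Dars, Eprs, Fars2, Farsb, Nars2 and Tars2 were lost (adjusted p 0.0638 to 0.152), which left 7 cytosolic genes higher and 0 lower, and 3 mitochondrial genes higher and 3 lower, so that those lower no longer outnumbered those higher. Without P75 replicate 2 those of Aars2, Dars, Fars2 and Tars2 were lost (0.0891 to 0.115) and 4 mitochondrial genes were lower, while Sars passed (0.025). Cars, Eprs, Fars2, Farsb and Nars2 were lost with Sars2 without P75 replicate 3 (0.0508 to 0.153), Aars2, Cars, Dars and Eprs without P75 replicate 1 (0.057 to 0.136), Cars, Eprs, Nars2 and Rars2 without 6 months replicate 2 (0.0525 to 0.0628), and Cars, Dars and Fars2 without 6 months replicate 3 (0.0599 to 0.159). Cars, just under the threshold, was also lost without either of 2 P18 samples or any of 3 samples at 24 months (adjusted p 0.0509 to 0.0619). With quantile normalisation Dars and Eprs were lost (0.0654 to 0.0781). The count of cytosolic genes called lower by limma was 0 in all alternatives, the edgeR test included, and 0 at an unadjusted p under 0.05.

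For 14 amino acids the table holds a cytosolic and a mitochondrial gene with matching symbols. At 6 months against P75 the cytosolic gene had the larger log2 fold change in 12 of the 14, with a median difference of 0.36 (from -0.37 to 0.85), and the exceptions were Mars with Mars2 and Sars with Sars2. The count was 12 in all alternatives, with medians of 0.29 to 0.46, and 11 of 13 without the uncertain Lars2. At 24 months against 6 months the cytosolic gene was above in 3 of 14, with a median difference of -0.24. For P75 against P18 it was above in 8 and for 24 months against P18 in 9. Neighbouring comparisons share the samples of an age, so these counts are not independent. Aars and Aars2 lay 0.85 apart and Nars and Nars2 0.80 apart on the log2 scale at 6 months against P75, while both genes for isoleucine rose.

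**Figure D4:**
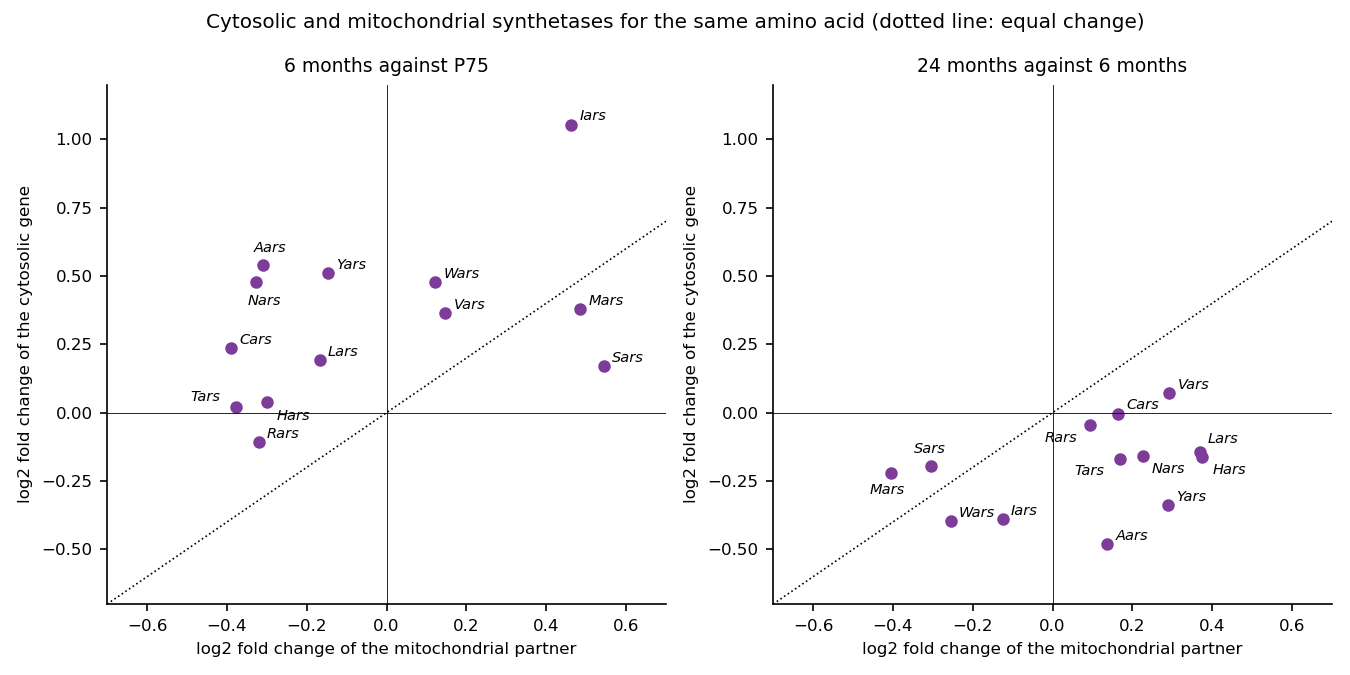
Log2 fold change of the cytosolic gene against that of its mitochondrial partner for 13 of the 14 amino acids, at 6 months against P75 and at 24 months against 6 months, labelled by the cytosolic gene; the dotted line marks equal change. At 6 months against P75, 11 of the 13 points lie above the line, and at 24 months against 6 months 2 do.

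The comparison of 24 months with 6 months set old age against mid-adulthood. Aars, Wars, Iars, Farsb, Yars and Eprs fell among the cytosolic genes, and no cytosolic gene rose (0 in the limma and edgeR tests and 0 at an unadjusted p under 0.05). Among mitochondrial genes Mars2 fell, and Hars2, Vars2 and Yars2 rose. That made 10 of 37 called, against 19.2% of all genes tested, with 3 higher (10.8% of all genes) and 7 lower (8.34% of all genes). Median log2 fold changes were -0.16 for cytosolic, 0.095 for mitochondrial and 0.030 for all genes tested. Without the uncertain Lars2 the mitochondrial median was 0.029, near that of all genes. With Lars2 it was -0.0020 without 24 months replicate 1 and 0.14 without 24 months replicate 2. The ages did not overlap for 4 members that were higher and 14 that were lower, against 43.2% of all genes. This comparison uses the same 6 months samples as the one before it, so the changes of a gene in the 2 comparisons are not independent. Neuronal markers summed to 127383 to 130901 normalised counts at 24 months, against 131431 to 134038 at 6 months, and endothelial markers to 219 to 248, against 250.2 to 272, both without overlap. The astrocyte, microglia and myelin sums overlapped. Taken singly, 0 of the 5 neuronal markers were called higher and 1 lower in the limma test, and 0 of the 3 endothelial markers were called. The part of the markers was not tested.

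Aars was at 2884 ± 203 normalised counts at 24 months, against 4028 ± 339 at 6 months (-0.48 ± 0.12, adjusted p = 0.0104). Mars2 was at 155 ± 4.34, against 206 ± 13.8 (-0.41 ± 0.11, adjusted p = 0.0205). Wars was at 1387 ± 86.4, against 1826 ± 63.1 (-0.40 ± 0.089, adjusted p = 0.00758). In each of these the ages did not overlap. Iars was at 825 ± 39.8 at 24 months, against 1083 ± 80.2 at 6 months (-0.39 ± 0.10, adjusted p = 0.0141), and all its 24 months samples still lay above all P18 and P75 samples. The others were Farsb (-0.36), Yars (-0.34) and Eprs (-0.32) among those that fell, and Hars2 (0.37), Vars2 (0.29) and Yars2 (0.29) among those that rose. Wars and Yars held in all alternatives of this comparison and the rest did not. Without 6 months replicate 1 the calls of Aars, Eprs, Farsb, Iars, Mars2, Vars2 and Yars2 were lost (adjusted p 0.0529 to 0.198), which left 3 of 37, and without 24 months replicate 2 the same 7 were lost (0.0524 to 0.191). Without 24 months replicate 1 Eprs, Farsb, Iars, Mars2, Vars2 and Yars2 were lost (0.0537 to 0.0982), and without 6 months replicate 2 Eprs, Farsb, Hars2, Mars2, Vars2 and Yars2 (0.0511 to 0.095), which left 4 in each case. Vars2 and Yars2 were lost in most of the alternatives, also without 24 months replicate 3, P18 replicate 2, P75 replicate 1 or P75 replicate 2 (adjusted p 0.0501 to 0.105), Vars2 without 6 months replicate 3 (0.0694) and Yars2 without P18 replicate 1 (0.0551). With the length trend removed Mars2 and Yars2 were lost (0.073 to 0.0871). The share of all genes called also depended on these libraries and was 8.24 to 10.1% in those 4 fits.

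Between 24 months and P18, the ends of the series, 12 of 37 were called, against 62.5% of all genes tested. Vars, Nars, Lars, Mars, Iars, Cars and Hars2 were higher (7 genes, 32% of all genes), and Hars, Fars2, Tars, Farsa and Farsb were lower (5 genes, 30.5% of all genes). Samples did not overlap for 17 members, against 66.1% of all genes. Microglia markers summed to 3502 to 3934 normalised counts at 24 months, against 1896 to 2529 at P18, and the myelin marker share was 7.44 ± 1.13%, against 17 ± 6.03%. Neither overlapped between the ages, while the astrocyte, neuronal and endothelial sums did, and their part in these results was not tested. Vars had 654 ± 61 normalised counts at 24 months, against 431 ± 70.3 at P18 (0.61 ± 0.11, adjusted p = 0.000169), and Nars had 5675 ± 152, against 3970.1 ± 131 (0.52 ± 0.081, adjusted p = 3.67e-05). Lars (0.43 ± 0.11, adjusted p = 0.00207) and Mars (0.34 ± 0.094, adjusted p = 0.00434) were also higher in all alternatives, and Hars and Fars2 (-0.44 ± 0.11, adjusted p = 0.0016) lower in all of them. Without P18 replicate 3 the calls of Farsa, Farsb, Iars and Tars were lost (adjusted p 0.0525 to 0.0851). Farsb was lost too without P18 replicate 2, 24 months replicate 1 or 24 months replicate 2 (0.057 to 0.184), Tars without 24 months replicate 1 (0.0539), and Cars without P18 replicate 1, P18 replicate 2 or 24 months replicate 3 (0.0503 to 0.0575). With values quantile-normalised, which shifts the median of all genes to -0.11, 7 were higher and 10 lower, and with the trend on transcript length removed 4 were higher and 9 lower, with Cars, Hars2 and Iars lost (adjusted p 0.0744 to 0.137).

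Farsa and Farsb encode the alpha and beta subunits of a single cytosolic phenylalanyl-tRNA synthetase, and Farsb but not Farsa passed in the comparisons that involve 6 months with its neighbours. Farsa had 749.8, 713 and 934 at P18, 650.4, 719 and 587 at P75, 613, 638 and 575 at 6 months, and 613, 640.1 and 641 at 24 months, and Farsb had 1422, 1489 and 1547 at P18, 1359, 1419.5 and 1123 at P75, 1706, 1632 and 1487 at 6 months, and 1126, 1301 and 1342 at 24 months. Farsb rose at 6 months against P75 (0.31 ± 0.10, adjusted p = 0.0147) and fell at 24 months against 6 months (-0.36 ± 0.10, adjusted p = 0.0209), while Farsa had -0.10 ± 0.11 (adjusted p = 0.464) and 0.054 ± 0.11 (0.761). The ratio of Farsb to Farsa counts in a sample was 2.78, 2.56 and 2.59 at 6 months, against 2.09, 1.97 and 1.91 at P75, and 1.84, 2.03 and 2.09 at 24 months, against 2.78, 2.56 and 2.59 at 6 months. It was 1.90, 2.09 and 1.66 at P18. The ratio was highest in the 6 months samples, which did not overlap with any other age, and it was not tested. Both Farsb calls were lost without 6 months replicate 1 (adjusted p = 0.0638 and 0.0884), the rise also without P75 replicate 3 (0.0886), and the fall also without 6 months replicate 2, 24 months replicate 1 or 24 months replicate 2 (0.0524 to 0.0982). Farsb shares 11.3% of its exonic bases with Sgpp2 on the opposite strand.

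In the multisynthetase complex, 4 of the 8 synthetases rose at 6 months against P75 (Iars, Mars, Dars and Eprs) and 0 fell by limma or edgeR (0 at an unadjusted p under 0.05), while all 3 scaffold genes fell. That is 50% of the complex synthetases called, against 52.4% of all genes tested, with 27.1% of all genes higher and 25.4% lower, so the share called was near that of all genes. Without 6 months replicate 1, 2 of the 8 rose. Eprs, whose product joins glutamyl- and prolyl-tRNA synthetases in a single chain, had 2063, 2091 and 2375 at P18, 2342, 2419.9 and 2190.0 at P75, 3012, 2690.4 and 2513 at 6 months, and 2105, 2174 and 2278 at 24 months. Its 6 months samples lay above those of P75 (0.24 ± 0.088, adjusted p = 0.0317) and of 24 months (-0.32 ± 0.088, adjusted p = 0.0195 for 24 months against 6 months). Aimp1 had 1940.5, 2033 and 2239 at P18, 3103, 3380.5 and 3326 at P75, 1979, 2524 and 2355 at 6 months, and 2799, 2649 and 2435 at 24 months. It was highest at P75, where it rose against P18 (0.66 ± 0.10, adjusted p = 6.60e-05), and fell at 6 months (-0.52 ± 0.10, adjusted p = 0.000294). Eef1e1 fell at 6 months to 795 ± 119 normalised counts, against 1139 ± 102 at P75 (-0.52 ± 0.11, adjusted p = 0.000988), and Aimp2 to 699.5 ± 30.5, against 859.6 ± 107 (-0.29 ± 0.10, adjusted p = 0.0181). The Aimp2 call was lost without P75 replicate 2 (-0.19, adjusted p = 0.113) or 6 months replicate 1 (-0.26, adjusted p = 0.0693). Eprs lost its rise at 6 months without P75 replicate 1 (0.057), P75 replicate 3 (0.108), 6 months replicate 1 (0.152) or 6 months replicate 2 (0.0567), and its fall at 24 months without 6 months replicate 1, 6 months replicate 2, 24 months replicate 1 or 24 months replicate 2 (0.0511 to 0.0955). The falls of Aimp1 and Aimp2 did not pass with the trend on transcript length removed.

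Synthetases fall into a pair of structural classes with unrelated catalytic folds, and the 20 cytosolic genes divide evenly between them, with Eprs, which holds an enzyme of each, counted in class I. At 6 months against P75, 7 of 10 class I genes and 4 of 10 class II genes rose, against 27.1% higher among all genes tested, with ranges of 4 to 7 and 2 to 4 over the alternatives, the lowest being 4 with the length trend removed and 2 without 6 months replicate 1. At 24 months against P18, 5 of 10 class I genes were higher and 0 lower (Cars, Iars, Lars, Mars and Vars; median 0.20), while in class II, 1 was higher (Nars) and 4 were lower (Hars, Tars, Farsa and Farsb; median -0.12). Over all genes tested in that comparison the median was -0.0051, with 32% higher, 30.5% lower and 62.5% called, against 50% called in each class. Over the alternatives 3 to 5 class I genes were higher and 0 to 2 lower (0 lower in edgeR and 0 at an unadjusted p under 0.05), and 1 to 5 class II genes were lower, with 1 lower without P18 replicate 3. The difference between the classes was not tested. Among mitochondrial genes the only calls at 24 months against P18 were Hars2 (0.29 ± 0.091, adjusted p = 0.0108), which was higher, and Fars2, which was lower, and both are of class II. The Hars2 call was lost with the length trend removed (0.17, adjusted p = 0.0939), and with quantile normalisation 1 mitochondrial gene was higher and 5 lower, the class I genes Cars2, Ears2 and Wars2 among them.

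Transcript length moved with the comparisons over the whole table. Across 13506 genes, which are not independent, the log2 fold change correlated with transcript length at Spearman rho 0.33 for 6 months against P75 and -0.34 for 24 months against 6 months. The median length was 2870 bases for cytosolic and 3336 for mitochondrial synthetases, 1185 for the scaffold genes and 3184 for all genes tested. With the trend on length removed, 8 cytosolic genes rose and 0 fell at 6 months against P75 (median 0.13), and 3 mitochondrial genes rose and 5 fell (median -0.20). Iars, Aars, Yars, Wars and Nars remained called, and Cars, Eprs, Fars2, Rars2 and Vars were lost. Of the scaffold genes Eef1e1 kept its fall (-0.55, adjusted p = 0.000802), and Aimp1 (-0.073, adjusted p = 0.429) and Aimp2 (0.12, adjusted p = 0.269) did not. Fewer genes were tested in this setting.

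**Figure D5:**
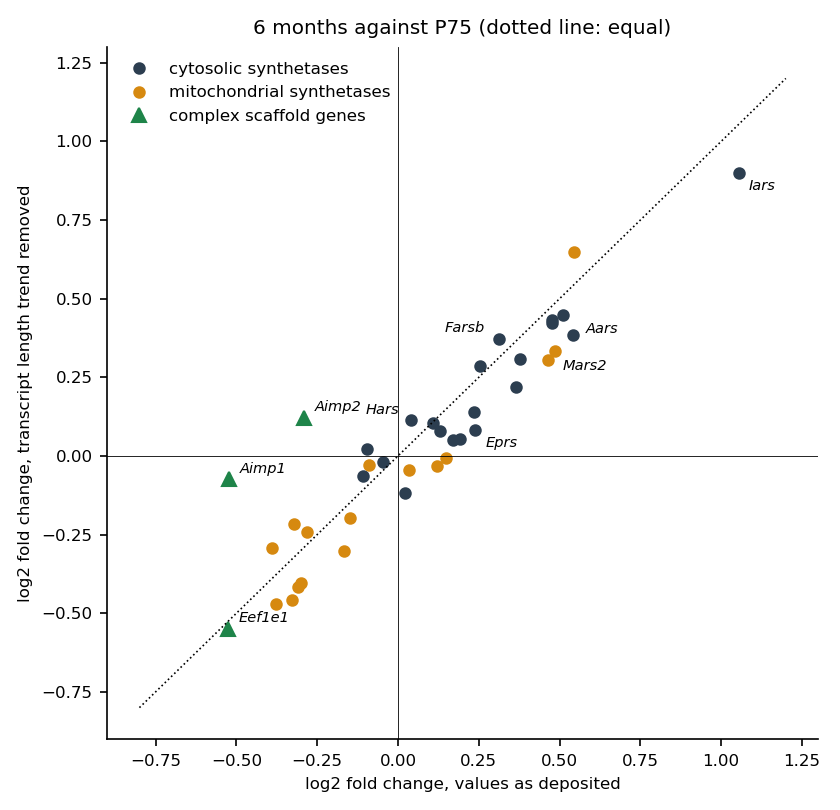
Log2 fold change at 6 months against P75 of 36 synthetase genes and the scaffold genes with values as deposited (horizontal axis) and with the trend on transcript length removed in each library (vertical axis); the dotted line marks equal values. Iars stays the highest in both, the median of all 17 mitochondrial genes was -0.15 and -0.20 and that of the cytosolic genes 0.24 and 0.13, and Aimp1 and Aimp2 move to near 0 or above while Eef1e1 stays in place.

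Sars, for serine, which like Lars2 and Nars was among the 3 members with the highest mean counts, had 4006, 4068 and 4370.3 at P18, 3824, 4568 and 3814 at P75, 4533, 4714 and 4434 at 6 months, and 4111, 3812 and 4033 at 24 months. Its P75 samples overlapped those of P18 and of 6 months, whereas all 24 months samples lay below all 6 months samples. No comparison passed (0.17 ± 0.087, adjusted p = 0.111 for 6 months against P75), though that one did without P75 replicate 2 (0.26, adjusted p = 0.025). The members with the lowest counts were all mitochondrial. Pars2, for proline, had 128, 131 and 116 at P18, 111, 122 and 109 at P75, 106, 114 and 133 at 6 months, and 132, 117 and 91.6 at 24 months. Ears2, for glutamate, had 113, 114 and 86.4 at P18, 99.2, 103 and 69.7 at P75, 93.4, 74.6 and 84.7 at 6 months, and 68.4, 78.9 and 88.9 at 24 months. Wars2, for tryptophan, had 58.2, 78 and 81.4 at P18, 63.1, 70.5 and 61.9 at P75, 78, 71 and 64.2 at 6 months, and 75.3, 46.5 and 59.2 at 24 months. None of these 3 passed in any comparison with the values as deposited and all samples, and their samples overlapped between all neighbouring ages. Ears2 passed at 24 months against P18 without P18 replicate 3, P75 replicate 3 or 24 months replicate 3 (adjusted p 0.0197 to 0.0452; 0.0609 with all samples). With quantile normalisation all 3 were called lower at 24 months than at P18, Ears2 at -0.66, adjusted p = 0.00374, Pars2 at -0.40, adjusted p = 0.0306 (-0.15 as deposited) and Wars2 at -0.54, adjusted p = 0.0191 (-0.27 as deposited).

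The integrated stress response and ATF4 target genes, a list of 28 that holds no synthetase, were set beside the members because of the known link. At 6 months against P75, 13 rose, 7 fell and 8 did not pass, with a median of 0.21 (0.0029 over all genes) and 71.4% called, against 52.4% of all genes tested. Sesn2, which restrains mTORC1 signalling when amino acids are scarce, had 58.2, 64.4 and 66.3 at P18, 43.1, 30.6 and 25.4 at P75, 169.8, 153 and 149.9 at 6 months, and 83.2, 83.2 and 88.9 at 24 months. Its 6 months samples lay above and its P75 samples below those of every other age, with 2.25 ± 0.17, adjusted p = 1.25e-07 for 6 months against P75. Slc3a2 (0.78 ± 0.10, adjusted p = 7.43e-06) and Slc7a1 (0.80 ± 0.10, adjusted p = 9.04e-06), which bring amino acids into the cell, rose. Cebpb, a transcription factor that pairs with ATF4, fell (-1.57 ± 0.19, adjusted p = 6.04e-06). Atf4 itself had -0.091 ± 0.093 (adjusted p = 0.429). With the length trend removed, 12 rose and 4 fell, and leaving out single samples gave 12 to 13 that rose and 6 to 7 that fell.

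For P75 against P18, 4 of the 28 rose and 6 fell (35.7% called, against 40.4% of all genes), with Sesn2 (-0.94 ± 0.17, adjusted p = 0.000491), Shmt2 (-0.50 ± 0.10, adjusted p = 0.00103) and Ddit4 (-0.92 ± 0.18, adjusted p = 0.000755) lower and Vldlr higher (0.56 ± 0.10, adjusted p = 0.000259). At 24 months against 6 months 2 rose and 4 fell (21.4%, against 19.2%). Nupr1 (0.46 ± 0.13, adjusted p = 0.0249) and Asns (-0.37 ± 0.12, adjusted p = 0.0392) each lost the call without any one of 5 samples of these ages (adjusted p of up to 0.353 for Nupr1 and 0.133 for Asns). The fall of Sesn2 (-0.88 ± 0.17, adjusted p = 0.00403) held in all alternatives, while the rise of Cebpb (0.75 ± 0.19, adjusted p = 0.0134) was lost without 6 months replicate 2 (adjusted p = 0.0598). At 24 months against P18 9 rose and 8 fell (60.7%, against 62.5%), and Slc38a2 (1.15 ± 0.11, adjusted p = 1.43e-07), Vldlr (1.07 ± 0.10, adjusted p = 8.42e-08) and Slc3a2 (1.06 ± 0.10, adjusted p = 8.84e-08) were higher, as was Slc7a1, with 649.8 ± 39.7 at 24 months, against 326 ± 27 at P18 (adjusted p = 3.05e-07). Of the 4 kinases that start this response, Eif2ak4, the sensor of uncharged tRNA, rose at P75 against P18 (0.43 ± 0.10, adjusted p = 0.00185) and fell at 6 months against P75 (-0.31 ± 0.10, adjusted p = 0.0114). Eif2ak1, the heme-regulated kinase, moved the other way in both (-0.57 ± 0.11, adjusted p = 0.000902, and 0.77 ± 0.11, adjusted p = 3.77e-05), and Eif2ak3, the kinase of the endoplasmic reticulum, was higher at 24 months than at P18 (1.24 ± 0.094, adjusted p = 1.20e-08). What these transcripts have to do with those of the synthetases was not tested.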

How the data were processed

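RNA sequencing of a myelin-enriched brain fraction was deposited as 1 table of 21937 genes in 12 samples, 3 at each of 4 ages. The deposited values are a signal, normalised read counts, which the authors made by dividing the reads of a gene by 1 size factor per sample, as the column steps show. TopHat, HTSeq, DESeq and the genome build mm9 are named in the submitters' processing notes without versions. RNA extraction, library construction and strand are not given in the sources used here. In every sample, 100% of values were whole multiples of its step within a tolerance of 0.0061, so whole reads were recovered (20299052 to 27214385 per sample); in 3 samples the step lay so close to 1 that it was read from the whole column. Dividing by size factors makes samples comparable only if most genes do not change, and values are not corrected for gene length.

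Genes with a value of at least 10 in at least 3 samples (14987) were tested on log2(value + 1), so that fold changes of low genes are understated, with limma 3.58.1 in R 4.3.3 (trend, all 12 samples, 4 ages, two-sided, Benjamini-Hochberg over all genes tested, threshold 0.05). Only the limma and edgeR calls for P75 against P18 were tried on simulated reads, with spreads taken from these data. The other steps were not. Transcript lengths and exonic overlaps came from GENCODE vM21 and were matched by symbol, with Python 3.11.15. Level comparisons between genes divide the mean value by the length of the longest protein-coding transcript annotated for the symbol.

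A mitochondrial gene counted among the 37 is not reported by itself here and not drawn. The genes and lists were chosen with earlier results of these data known. Given with every sample are, per consecutive comparison, the 4 genes with the largest change that passed with a mean of at least 50, the 3 highest and 3 lowest by mean, and Farsa, Farsb and Eprs. Of each other list up to 4 genes with the lowest adjusted p were named per comparison; Atf4, Tars and the scaffold genes were named for their roles, and Exosc6, Rab3gap2 and Sgpp2 for their overlaps. Older symbols were used for some list genes, and Dtd2, Ptrhd1 and Trmt10c were not matched. Alternatives were pseudocounts of 0.5 and 8, no filter or a minimum of 50, quantile normalisation, TMM factors, edgeR 4.0.16 (quasi-likelihood) on the recovered reads, only the ages compared, the replicate number as a block, and each sample left out. Removal of the trend of each library on transcript length or GC content was added after seeing the data.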

Additional observations from a re-analysis of the deposited data

How the results depend on the processing

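Of the 148 member results (37 genes in 4 comparisons), 51 were called, of which 20 were called in all alternatives and 31 were lost in at least 1; of the 97 not called, 24 were called in at least 1. No result changed sign while called. Leaving out single samples gave 4 to 11 called genes for P75 against P18 (4 without P18 replicate 2, 11 without P18 replicate 3), 13 to 21 for 6 months against P75, 3 to 10 for 24 months against 6 months, 10 to 13 for 24 months against P18 and 19 to 26 in the F test. Cytosolic genes called higher at 6 months against P75 ranged from 7 to 11, mitochondrial genes called lower there from 3 to 7, and cytosolic genes called lower at 24 months against 6 months from 2 to 6. The lowest counts at 24 months against 6 months came without 6 months replicate 1 or 24 months replicate 2, and at 6 months against P75 without 6 months replicate 1; the cause was not tested.

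At 24 months against 6 months the split of 3 higher and 7 lower became 1 and 7 with quantile normalisation, without a filter and with the block. For 24 months against P18, 7 higher and 5 lower became 7 and 10 with quantile normalisation, 7 and 7 with the GC trend removed and 4 and 9 with the length trend removed. The edgeR test on recovered reads called 39.9% of all genes for P75 against P18, 53.1% for 6 months against P75, 21.3% for 24 months against 6 months and 62.4% for 24 months against P18, and its member counts were 2 higher and 7 lower, 14 and 7, 3 and 7, and 7 and 5.

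Samples with the same replicate number did not deviate together across all ages. Over 18 such pairs the correlation of deviations from the age means ran from -0.18 to 0.16 (median -0.043), with 3 over 0.1. Over 36 pairs with different numbers it ran from -0.15 to 0.19 (median 0.0049), with 4 over 0.1. Of 12 samples, 0 correlated best with their own number in all other ages. Between P75 and 6 months alone, however, pairs with the same number correlated at 0.15, 0.093 and 0.16, and those with different numbers at -0.13 to -0.028. Whether samples of these 2 ages were handled in pairs was not tested. With the replicate number as a block, 2 genes were higher and 5 lower for P75 against P18, 13 and 7 for 6 months against P75, 1 and 7 for 24 months against 6 months, and 7 and 4 for 24 months against P18; Farsa at P75 against P18 was among those lost (adjusted p = 0.056).

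With 3 samples an age, the SE of most member changes lay near 0.1 on the log2 scale, so changes of about that size were not detectable. Some mitochondrial genes have low counts (Wars2 under 100 in each sample), where counting error adds to the spread. Lars2 varied too much within ages for its level to be read, and genes that share exonic bases with neighbours (Aars, Iars2, Hars, Hars2, Farsb and others, 11 of 37) could hold reads of those.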

Other observations

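Other genes of tRNA charging were described from lists that hold no member. Among 8 synthetase-like and editing genes, 2 rose and 3 fell at 6 months against P75 (62.5% called, against 52.4% of all genes tested). Tarsl2, a cytosolic threonyl-tRNA synthetase-like gene, had 558, 643 and 533 at P18, 515, 498 and 589 at P75, 877, 778 and 834 at 6 months, and 623, 659.5 and 638 at 24 months. Its 6 months samples lay above all others (0.64 ± 0.10, adjusted p = 4.41e-05 for 6 months against P75), while Tars had 0.022 ± 0.11, adjusted p = 0.884. The difference between them was not tested. Tarsl2 fell at 24 months against 6 months (-0.37 ± 0.10, adjusted p = 0.0142), a call lost without 6 months replicate 1 or 24 months replicate 1 (adjusted p of up to 0.0674). Ptrh2, which frees tRNA from stalled peptides, fell at 6 months against P75 to 499 ± 35.9 normalised counts, against 776 ± 50.8 at P75 (-0.64 ± 0.086, adjusted p = 1.70e-05).

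Of 10 partners of mitochondrial tRNA charging and maturation, 2 rose and 3 fell at 6 months against P75 (50%, against 52.4%). Mtfmt, which formylates the initiator methionyl-tRNA, fell (-0.61 ± 0.13, adjusted p = 0.000838), as did Trnt1, which adds the CCA end (-0.54 ± 0.12, adjusted p = 0.00118), and Hsd17b10, a subunit of mitochondrial RNase P (-0.62 ± 0.093, adjusted p = 4.21e-05), whose call was lost with the length trend removed (adjusted p = 0.429). At 24 months against P18, 5 fell and 0 rose in the limma test (0 also at an unadjusted p under 0.05; 50% called, against 62.5% of all genes tested), among them Hsd17b10 (-0.60 ± 0.093, adjusted p = 3.24e-05) and the genes of the glutamyl-tRNA amidotransferase Gatc (-0.42 ± 0.087, adjusted p = 0.000473) and Qrsl1 (-0.49 ± 0.11, adjusted p = 0.000811), with a median of -0.28. Among 26 genes of tRNA maturation and export, 4 rose and 5 fell at 6 months against P75 (34.6%, against 52.4%) and 1 rose and 6 fell at 24 months against P18 (26.9%, against 62.5%). Adat1, a tRNA adenosine deaminase, rose (0.77 ± 0.16, adjusted p = 0.000597) and Clp1, an RNA kinase of the tRNA splicing complex, fell at 6 months against P75 (-0.60 ± 0.15, adjusted p = 0.00363).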
